A study of Mus musculus with 6 samples.

Results

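The genes examined are the nuclear-encoded subunits of respiratory complexes II to V, with cytochrome c, in mouse hearts after a coronary ligation. They were chosen by symbol alone: Sdha to Sdhd, Cyc1, Cycs, and every gene whose symbol begins with Uqcr, Cox4, Cox5, Cox6, Cox7, Cox8 or Atp5. This rule was met by 63 symbols of the RefSeq gene annotation, of which 14 were pseudogenes and 1 was Cox8c. Neither the pseudogenes nor Cox8c were among the genes measured. That left 48 genes of the 17524 measured: 4 of complex II, 9 of complex III, cytochrome c, 17 of complex IV and 17 of complex V. Of these, 47 had enough counts to enter the test across 13565 genes. The exception was Cox7b2, a testis isoform of complex IV, with 1 count in WT library 35 and 0 in the other libraries, where a floor of 3 counts corresponds to between 0.200 and 0.232 CPM, the counts of a gene scaled to library size.

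The study compared 3 libraries labelled TFEB overexpression (34, 41 and 43) with 3 labelled wild type, WT (35, 36 and 37), in order to follow cardiac fibroblasts after infarction. TFEB, transcription factor EB, is a regulator of lysosome and autophagy genes. The TFEB mice are described as R26-LSL-TFEB [+/+]; Acta2-cre, that is, with a TFEB cassette at the Rosa26 locus behind a stop that Cre removes, and with Cre driven by Acta2, whose promoter is active in smooth muscle cells and myofibroblasts. In both groups the left anterior descending coronary artery had been tied. The labels give neither strain, age nor time after ligation, do not say that the libraries came from separate animals, and do not say whether WT mice carried Cre or the cassette. The p-values below therefore measure the spread between these libraries, which may be technical in part. Labels name the tissue as heart and the cells as primary fibroblasts, but heart muscle genes were abundant: all 16 cardiomyocyte markers were detected, with Myh6, the main adult myosin heavy chain, at 23129, 35081 and 49163 CPM in TFEB libraries, against 37282, 29428 and 44208 CPM in WT libraries. Tfeb itself stood at 45.4, 45.3 and 39.4 CPM in TFEB libraries, against 34.4, 33.8 and 41.4 CPM in WT libraries, so that the groups overlapped (log2 fold change 0.25, SE 0.12). Whether transcripts of the cassette are counted under Tfeb was not tested.

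Complexes II to V carry out the later steps of oxidative phosphorylation in the inner mitochondrial membrane. Complex II passes electrons from succinate to ubiquinone, complex III passes them from ubiquinol to cytochrome c, and complex IV hands them to oxygen, while complexes III and IV pump protons that complex V, the ATP synthase, uses to make ATP. Heart muscle depends on this supply and is among the tissues richest in these transcripts. Several subunits of complex IV exist as a heart and skeletal muscle isoform beside a widely expressed one, and many genes of the group are known targets of the nuclear respiratory factors, GABP and the oestrogen-related receptors.

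The promoters of 2 tissue isoform pairs are shown first, since the balance of muscle and widely expressed isoforms is described below. Each sequence is the 250 bases before a RefSeq start (GRCm38.p6), read along the gene's own strand from 5′ to 3′, with CpG dinucleotides in capitals. Cox7a1, the heart and muscle isoform of subunit VIIa, lies at chr7:30183921-30184170 on the plus strand, and Cox7a2, its widely expressed partner, at chr9:79759854-79760103 on the minus strand. The Cox7a2 window lies inside the span of its gene (chr9:79755241-79771422), so it precedes an internal start and not the outermost one. Cox8b, the muscle isoform of subunit VIII, lies at chr7:140900447-140900696 and Cox8a, its widely expressed partner, at chr19:7217617-7217866, both on the minus strand.
Cox7a1: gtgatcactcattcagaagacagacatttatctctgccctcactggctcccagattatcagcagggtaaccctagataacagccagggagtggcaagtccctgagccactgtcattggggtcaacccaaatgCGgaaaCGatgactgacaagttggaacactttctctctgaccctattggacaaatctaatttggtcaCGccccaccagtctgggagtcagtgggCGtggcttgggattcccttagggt
Cox7a2: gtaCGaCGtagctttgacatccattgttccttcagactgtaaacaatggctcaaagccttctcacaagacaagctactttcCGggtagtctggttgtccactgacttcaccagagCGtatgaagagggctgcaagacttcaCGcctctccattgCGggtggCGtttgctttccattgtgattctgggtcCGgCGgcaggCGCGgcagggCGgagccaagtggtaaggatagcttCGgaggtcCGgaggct
Cox8b: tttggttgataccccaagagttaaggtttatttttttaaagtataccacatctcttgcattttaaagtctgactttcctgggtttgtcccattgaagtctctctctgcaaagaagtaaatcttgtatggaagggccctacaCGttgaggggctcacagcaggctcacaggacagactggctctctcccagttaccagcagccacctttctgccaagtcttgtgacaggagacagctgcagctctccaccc
Cox8a: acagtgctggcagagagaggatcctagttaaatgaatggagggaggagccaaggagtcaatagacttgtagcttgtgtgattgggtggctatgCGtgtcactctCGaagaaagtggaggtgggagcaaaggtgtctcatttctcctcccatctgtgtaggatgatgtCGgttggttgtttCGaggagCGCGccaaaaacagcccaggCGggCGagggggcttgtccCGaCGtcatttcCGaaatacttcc
The muscle isoforms held 4 (Cox7a1) and 1 (Cox8b) CpG dinucleotides in this window, and the widely expressed isoforms held 14 (Cox7a2) and 11 (Cox8a). Low counts were not limited to muscle isoforms, since Uqcr10 and Cox7b, which are not among them, held 5 each. Over the 37 genes of the group with an entry in the promoter table, the median was 14 CpG dinucleotides (range 1 to 35) and 11 (29.7%) held fewer than 10, compared with a median of 6 and 59.8% over 27025 genes. The genes not in the promoter table were Sdhc, Uqcrb, Uqcrc2, Uqcrq, Cyc1, Cox4i1, Cox4i2, Cox6a2, Cox6c, Atp5a1 and Atp5mpl.

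Short motifs known for respiratory genes were searched in the same windows on both strands. The NRF1 motif GCGCANGCG was present in 9 of 37 promoters of the group (24.3%) and in 5.9% of all 27025. The ETS motif CCGGAAG, which GABP binds, was also present in 9 of 37 (24.3%), against 7.8% of all. The core motif of the oestrogen-related receptors, AAGGTCA, was found in 2 of 37 (5.4%; Atp5g3 and Atp5l), against 4.7% of all, and TATAAA in 3 of 37 (8.1%), against 14.3% of all. CACGTG, the core that TFEB and many other factors share, was found in 4 of 37 (10.8%; Atp5g1, Atp5g3, Atp5l and Atp5pb), against 6.9% of all, while TCACGTGA, the longer core of the lysosomal CLEAR element that contains CACGTG, was found in 0 of 37, against 0.9% of all. The NRF1, ETS, CACGTG and TCACGTGA motifs contain CG, and the windows of the group held more CpG dinucleotides (median 14, against 6 over all genes). The shares over all genes were not matched for this. These matches are descriptions of sequence and do not show binding. Atp5g3, which encodes the most abundant c-subunit transcript (chr2:73911327-73911576, minus strand), carries CACGTG and, as its reverse complement, the receptor motif. The Atp5g3 window also lies inside the span of its gene (chr2:73908447-73912464), before an internal start. Cycs, somatic cytochrome c (chr6:50566570-50566819, minus strand), carries the NRF1 motif as its reverse complement. Both are printed below in the same way, here with the motifs in capitals.
Atp5g3: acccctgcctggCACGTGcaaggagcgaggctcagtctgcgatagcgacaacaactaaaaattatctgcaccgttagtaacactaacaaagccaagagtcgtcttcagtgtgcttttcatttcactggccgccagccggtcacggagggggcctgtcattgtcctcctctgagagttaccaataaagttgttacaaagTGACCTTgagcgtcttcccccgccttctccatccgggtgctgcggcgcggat
Cycs: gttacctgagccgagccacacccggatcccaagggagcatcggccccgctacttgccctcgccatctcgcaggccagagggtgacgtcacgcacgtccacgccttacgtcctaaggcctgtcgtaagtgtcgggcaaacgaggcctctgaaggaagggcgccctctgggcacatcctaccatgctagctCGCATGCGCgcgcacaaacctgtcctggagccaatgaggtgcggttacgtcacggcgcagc

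Together the 48 genes held 8.02, 11.2 and 12.8% of all TPM (a level scaled for transcript length and to a common sum in each library) in TFEB libraries 34, 41 and 43, against 10.7, 9.92 and 12.8% in WT libraries 35, 36 and 37. Of the estimated counts, which are not scaled for length, they took 2.51, 3.59 and 4.2% in TFEB libraries, against 3.45, 3.10 and 4.16% in WT libraries, from totals of 12942480 to 14969287 counts a library. The groups overlapped on both scales, and the lowest and the highest share were both in TFEB libraries. Complex V held 3.78, 5.32 and 6.02% of TPM in TFEB libraries, against 5.14, 4.73 and 6.06% in WT libraries, and complex IV held 2.87, 4.02 and 4.59% in TFEB libraries, against 3.83, 3.50 and 4.57% in WT libraries. Complex III held 1.07 to 1.66% in TFEB libraries and 1.31 to 1.65% in WT libraries, and complex II held 0.265 to 0.439% in TFEB libraries and 0.330 to 0.418% in WT libraries. Each complex was lowest in TFEB library 34.

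**Figure D1:**
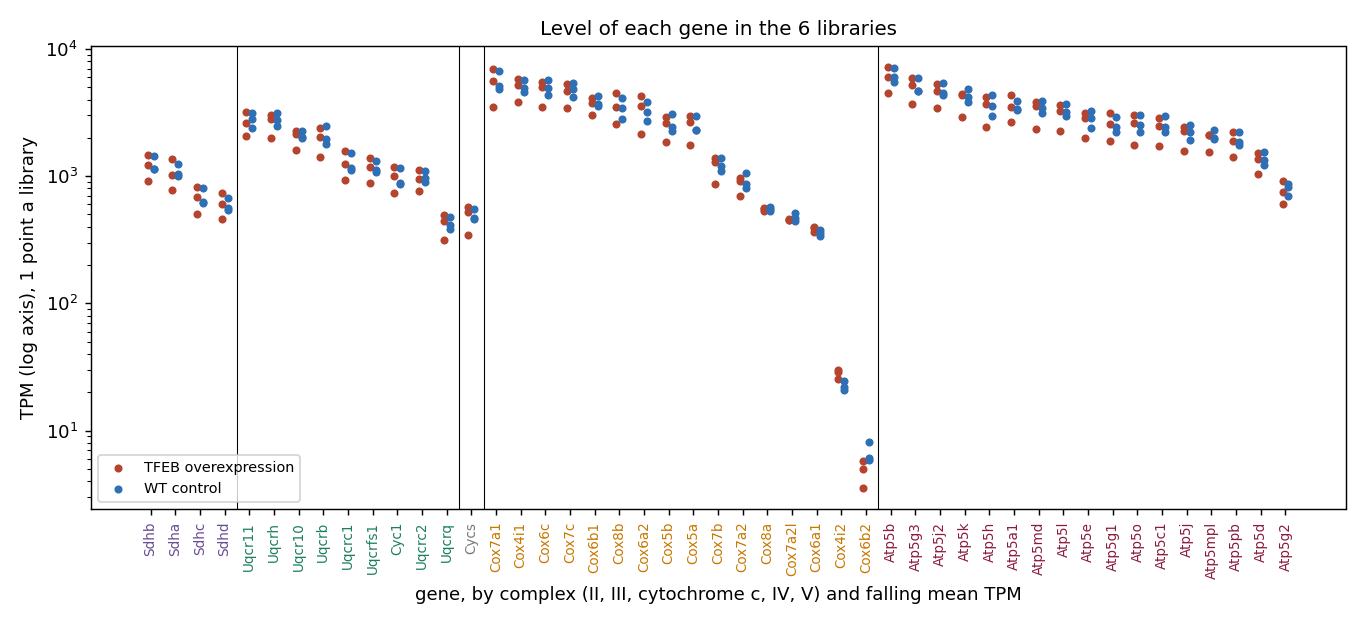
Level of each of the 47 tested genes in TPM on a log axis, ordered by complex and by falling mean level, with 1 point for each library of TFEB overexpression and WT control. Most genes lie between the mean levels of Cox6a1 (370.3 TPM) and Atp5b (6030.2 TPM) with both groups overlaid, while Cox4i2 and Cox6b2 lie far below.

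Complex II, succinate dehydrogenase, spanned a 2.05-fold range of mean levels over all 6 libraries. The iron-sulphur subunit Sdhb averaged 1220.2 TPM and the flavoprotein Sdha, which holds the active site, 1077 TPM. The membrane anchors were lower, Sdhc at 676 TPM and Sdhd at 596 TPM. Sdhb stood at 913, 1223 and 1467 TPM in TFEB libraries 34, 41 and 43, against 1142, 1138 and 1438 TPM in WT libraries 35, 36 and 37. Sdha stood at 780.5, 1021 and 1369.7 TPM in the TFEB libraries and 1034, 1001 and 1253 TPM in the WT libraries. Both genes were lowest in TFEB library 34 and highest in TFEB library 43, with all WT libraries in between. The log2 fold change, TFEB over WT, was -0.042 (SE 0.27) for Sdhb and -0.045 (SE 0.31) for Sdha, and of the 4 subunits 1 (Sdhd) was above 0 and 3 below, where 49% of all 13565 genes tested were below 0.

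Complex III, the cytochrome bc1 complex, spanned a 6.43-fold range. By TPM its most abundant transcripts were of small accessory subunits: Uqcr11 averaged 2702 TPM, the hinge protein gene Uqcrh 2693 TPM, Uqcr10 2051 TPM and Uqcrb 2003 TPM. The core proteins Uqcrc1 and Uqcrc2 averaged 1259 and 968 TPM, the Rieske iron-sulphur protein Uqcrfs1 1161 TPM, cytochrome c1 (Cyc1) 968 TPM and Uqcrq 420.0 TPM. Catalytic subunits were thus lower by TPM than several small accessory ones, though Uqcrq was the lowest of the complex. By estimated counts, not scaled for length, the order differed. In TFEB library 34 Uqcrfs1 had 8165 counts and Cyc1 7638, against 3103 for Uqcr11. Uqcr11 stood at 2077, 2635 and 3180.0 TPM in TFEB libraries 34, 41 and 43, against 2795, 2399.6 and 3124 TPM in WT libraries 35, 36 and 37. Uqcrh stood at 1988, 2816 and 3003 TPM in the TFEB libraries and 2774, 2461 and 3118 TPM in the WT libraries. Uqcrb stood at 1419, 2017 and 2369.5 TPM in the TFEB libraries and 1975, 1782 and 2458 TPM in the WT libraries. In all 9 genes TFEB library 34 was lowest in CPM, and the highest was TFEB library 43 in 7 and WT library 37 in 2. The log2 fold changes were -0.071 (SE 0.24) for Uqcr11, -0.093 (SE 0.24) for Uqcrh and -0.093 (SE 0.28) for Uqcrb, and 8 of the 9 genes were below 0. Uqcrh, Uqcrc2 and Uqcrq overlap other genes of the table (Gm12854, Pdzd9 and Gdf9), so their counts could hold reads of these.

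Cytochrome c (Cycs), the mobile carrier between complexes III and IV that also triggers apoptosis once released, stood at 344, 518 and 568 TPM in TFEB libraries 34, 41 and 43, against 470.4, 462 and 547 TPM in WT libraries 35, 36 and 37. It followed the same order of libraries as complex II within the TFEB group, with -0.044 (SE 0.27) as the log2 fold change. The rule also met pseudogenes, which were not among the genes measured. They include copies of Uqcrh, Cox5b, Cox6c, Cox7c, Atp5c1, Atp5k, Atp5l and Atp5pb, so that the values of these 8 genes are uncertain where copies share reads. Copies under symbols outside the rule were not looked for, so the same may hold for Cycs and the other genes.

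Complex IV, cytochrome c oxidase, had the widest range among the tested genes, 955-fold from Cox7a1 (5462 TPM) to Cox6b2 (5.72 TPM). Beside Cox7a1 the most abundant subunits were Cox4i1 (5001 TPM), the regulatory subunit needed for early assembly, Cox6c (4826 TPM), Cox7c (4635 TPM) and Cox6b1 (3725 TPM), which faces the cytochrome c side. The muscle isoforms Cox8b and Cox6a2 averaged 3487 and 3283 TPM. Cox5b, Cox5a and Cox7b averaged 2530.5, 2496 and 1209 TPM. The widely expressed isoforms were lower: Cox7a2 885 TPM, Cox8a 548 TPM and Cox6a1 370.3 TPM. Cox7a2l, a relative of the VIIa isoforms known for joining complexes III and IV into supercomplexes, averaged 465 TPM. Cox4i2, an alternative subunit IV known from lung and oxygen-sensing cells, averaged 25.2 TPM.

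The muscle isoforms and their widely expressed partners varied differently between libraries. Cox6a2 stood at 2153, 3565 and 4232 TPM in TFEB libraries 34, 41 and 43, against 3217, 2719 and 3814 TPM in WT libraries 35, 36 and 37. Its widely expressed partner Cox6a1 stood at 401, 390.2 and 361 TPM in the TFEB libraries and 337, 356 and 377 TPM in the WT libraries. By TPM the order of the TFEB libraries was thus opposite in these isoforms, but not by CPM, where Cox6a1 stood at 60.4, 64.0 and 63.0 in TFEB libraries and 55.3, 55.0 and 64.6 in WT libraries. Cox7a1 stood at 3519, 5570.2 and 7012 TPM in the TFEB libraries and 5106, 4813 and 6752 TPM in the WT libraries. Cox7a2 stood at 693, 921 and 960.2 TPM in the TFEB libraries and 872, 804 and 1058 TPM in the WT libraries. Here both isoforms were lowest in TFEB library 34. Cox8b stood at 2591, 3473 and 4475 TPM in the TFEB libraries and 3452, 2819 and 4115 TPM in the WT libraries. Cox8a stood at 551, 558 and 529 TPM in the TFEB libraries and 553, 529 and 571 TPM in the WT libraries. Cox8a was nearly level by TPM, and in all 6 genes the groups overlapped. By TPM, the highest library was 1.97 times the lowest for Cox6a2, 1.99 times for Cox7a1 and 1.73 times for Cox8b, and 1.19 times for Cox6a1 and 1.08 times for Cox8a. Cox7a2 lay in between at 1.53 times. Cox7a2l was also nearly level by TPM, at 453, 451 and 459 TPM in the TFEB libraries and 516, 446 and 466 TPM in the WT libraries, a 1.16-fold range. Cox6a2 overlaps Itgad, and Cox7a2 overlaps Tmem30a.

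**Figure D2:**
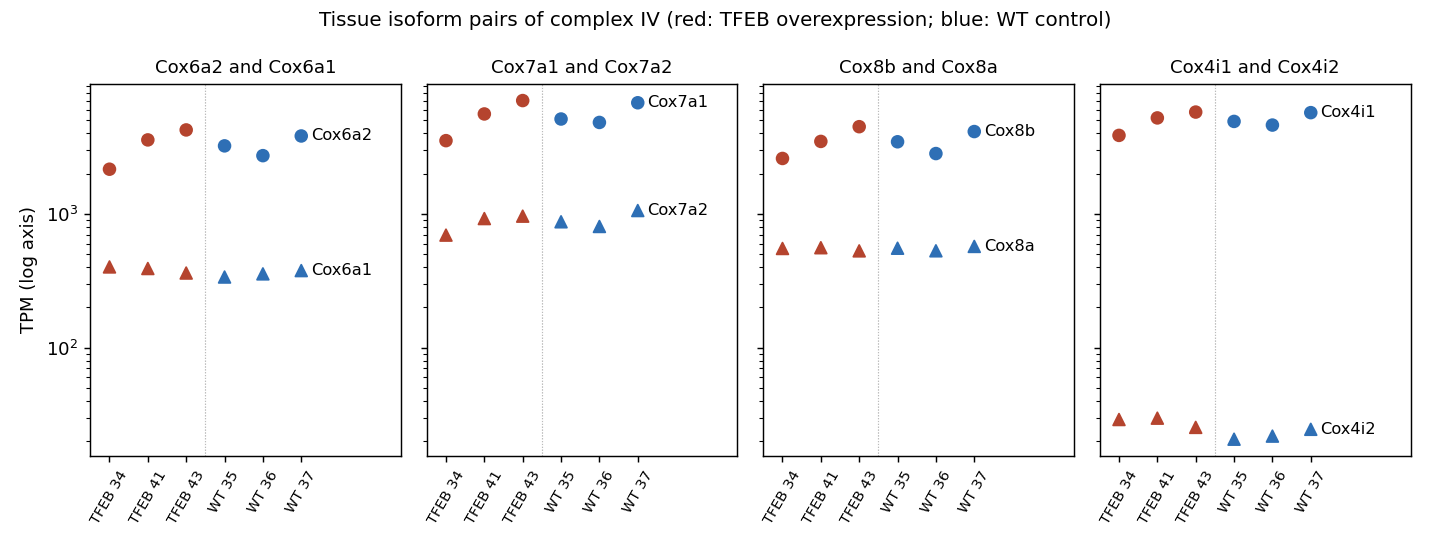
TPM on a log axis of both isoforms of 4 complex IV subunits in each library, with TFEB libraries (red) left of WT libraries (blue); circles mark Cox6a2, Cox7a1, Cox8b and Cox4i1, and triangles mark their partners. By TPM, Cox6a1 and Cox8a are almost level over the 6 libraries, while Cox6a2 and Cox8b are lowest in TFEB library 34 and highest in TFEB library 43.

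Whether the balance of isoforms differed between the groups was tested on the log2 ratio of their TPM within each library, with an exact two-sided permutation test whose smallest possible p is 0.1 with 3 libraries against 3. Cox6a2 was 5.37, 9.14 and 11.7 times Cox6a1 in TFEB libraries 34, 41 and 43, against 9.54, 7.64 and 10.1 times in WT libraries 35, 36 and 37 (log2 difference -0.12, exact p = 0.8). Cox7a1 was 5.08, 6.05 and 7.30 times Cox7a2 in TFEB libraries, against 5.86, 5.99 and 6.38 times in WT libraries (log2 difference 0.00084, exact p = 1.0). The size of this ratio depends on the scaling for transcript length. By estimated counts Cox7a1 had 3330 against 2954 for Cox7a2 in TFEB library 34, and 5783 against 3687 in TFEB library 43. Cox8b was 4.70, 6.22 and 8.47 times Cox8a in TFEB libraries, against 6.24, 5.33 and 7.21 times in WT libraries (log2 difference 0.016, exact p = 1.0). In all 3 pairs the lowest and the highest ratio were in TFEB libraries 34 and 43, with the WT libraries between them. Cox4i1 was 133, 175 and 227 times Cox4i2 in TFEB libraries, against 236, 211 and 232 times in WT libraries, a mean of 178 ± 47.1 in TFEB libraries and 226 ± 13.8 in WT libraries (SD, n = 3 each; log2 difference -0.38, exact p = 0.2). After Benjamini-Hochberg adjustment over the 4 pairs, p was 0.8 for Cox4i1 over Cox4i2 and 1.0 for the other pairs.

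Cox4i2 was the only gene of the group whose CPM did not overlap between the groups, 1 of 47 genes (2.13%), where 4.75% of all 13565 genes had no overlap. It stood at 29.1, 29.8 and 25.4 TPM in TFEB libraries 34, 41 and 43, against 20.7, 21.9 and 24.6 TPM in WT libraries 35, 36 and 37, from 117, 113 and 92 estimated counts in TFEB libraries and 86, 82 and 93 in WT libraries. It averaged 28.1 ± 2.35 TPM in TFEB libraries and 22.4 ± 1.97 TPM in WT libraries (SD, n = 3 each), and its ratio of TFEB to WT was 1.24 (95% interval 0.944 to 1.64). In edgeR its p was 0.103 before adjustment and 1.00 after it. The 10 smooth muscle and pericyte markers were summed to 2095, 2251 and 2159.9 CPM in TFEB libraries, against 1526, 1986 and 2024 CPM in WT libraries, with none at 0 and with no overlap, and all 10 had log2 fold changes above 0 (median 0.30). As mean log2 CPM relative to the mean of the 6 libraries these markers stood at 0.36, 0.27 and -0.21 in TFEB libraries, against -0.345, 0.015 and -0.089 in WT libraries, and on that scale the groups overlapped. Other lists were uneven too. All 15 matrix and activated fibroblast markers (median 0.64) and 9 of 10 macrophage and monocyte markers were above 0. Of 10 resident fibroblast markers 7 were below 0, as were all 4 tested adipocyte markers. Summed CPM of the resident fibroblast and of the adipocyte markers also did not overlap, and was lower in TFEB libraries. The part of smooth muscle and pericyte markers in the level of Cox4i2, and that of Bcl2l1, a gene it overlaps, was not tested. Cox4i1, its abundant partner, stood at 3853, 5203 and 5753 TPM in the TFEB libraries and 4899, 4600.5 and 5697 TPM in the WT libraries, which gave a log2 fold change of -0.034 (SE 0.26). Cox6b2, the isoform of Cox6b1 known from testis, had 12, 8 and 12 estimated counts in TFEB libraries and 20, 13 and 13 in WT libraries. Its levels of 4.99, 3.53 and 5.72 TPM in the TFEB libraries and 8.15, 6.08 and 5.86 TPM in the WT libraries did not overlap in TPM but did in CPM. With the fewest counts of the tested genes it had the most negative log2 fold change of the group and the largest error, -0.48 (SE 0.35), a ratio of 0.715 (95% interval 0.397 to 1.29).

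Complex V, the ATP synthase, was led by Atp5b, the catalytic beta subunit and the most abundant transcript of the whole group at 6030.2 TPM. Of the other subunits of the catalytic head, alpha (Atp5a1) averaged 3515 TPM, gamma (Atp5c1), the rotating shaft, 2453 TPM, epsilon (Atp5e) 2757 TPM and delta (Atp5d) 1339 TPM. The stalk genes Atp5h, Atp5o, Atp5j and Atp5pb averaged 3522, 2532, 2163 and 1895 TPM. The membrane subunits Atp5j2, Atp5k, Atp5md, Atp5l and Atp5mpl, some of which hold synthase dimers together, averaged 4609, 4081, 3366, 3167 and 2009.6 TPM. The catalytic, stalk and membrane parts thus lay in overlapping ranges of level. Atp5b stood at 4485, 5970.0 and 7214 TPM in TFEB libraries 34, 41 and 43, against 5995, 5496 and 7021 TPM in WT libraries 35, 36 and 37. Atp5k stood at 2922, 4331 and 4410.3 TPM in the TFEB libraries and 4169, 3802 and 4854 TPM in the WT libraries. Atp5mpl stood at 1557, 2099.5 and 2123 TPM in the TFEB libraries and 2009.8, 1969.9 and 2299 TPM in the WT libraries. All 17 genes were lowest in TFEB library 34 by CPM, 8 were highest in TFEB library 43 and 9 in WT library 37. The log2 fold changes were -0.063 (SE 0.32) for Atp5b, -0.13 (SE 0.23) for Atp5k and -0.11 (SE 0.19) for Atp5mpl, and only Atp5g1 of the 17 genes was above 0. Atp5a1, Atp5d, Atp5j and Atp5md overlap Haus1, Cbarp, Gabpa and Taf5.

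The c-ring, the rotor that protons turn, is built from identical c subunits that Atp5g1, Atp5g2 and Atp5g3 encode with different import sequences. Summed over these genes the level was 6144 TPM in TFEB library 34, 8517 in 41 and 9996.5 in 43, against 7931 TPM in WT library 35, 7582 in 36 and 9698 in 37. Atp5g3 supplied 59.2 to 61.2% of it, Atp5g1 29.6 to 31.3% and Atp5g2 8.84 to 10.3% over the 6 libraries. The mix was therefore nearly the same in each library while its sum varied. Atp5g1 stood at 1877, 2588 and 3133 TPM in TFEB libraries 34, 41 and 43, against 2417, 2241 and 2934 TPM in WT libraries 35, 36 and 37, with a log2 fold change of 0.0066 (SE 0.28). Atp5g2 stood at 604, 753 and 913 TPM in the TFEB libraries and 816, 698 and 863 TPM in the WT libraries, with -0.061 (SE 0.23). Atp5g3 stood at 3663, 5176 and 5949.7 TPM in the TFEB libraries and 4697, 4643 and 5901 TPM in the WT libraries, with -0.033 (SE 0.29).

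Most genes of all 4 complexes thus shared 1 pattern over the libraries. By CPM, 43 of the 47 tested genes (91.5%) were lowest in TFEB library 34, compared with 27.4% of all 13565 genes, and 44 (93.6%) were highest in TFEB library 43 (26 genes) or WT library 37 (18 genes), compared with 36.8% of all genes. The exceptions to the low value in TFEB library 34 were Cox8a, Cox6a1 and Cox4i2, lowest in WT library 36, and Cox6b2, lowest in TFEB library 41. The median gene of the group differed by 1.85 times between its highest and lowest library, against 1.48 times for all genes tested. By TPM, or by CPM with no scaling factor, 42 of the 47 were lowest in TFEB library 34, both counts added after the data were seen. The library that is lowest and the one that is most often highest both carry the TFEB label, so the spread within that group was wide.

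**Figure D3:**
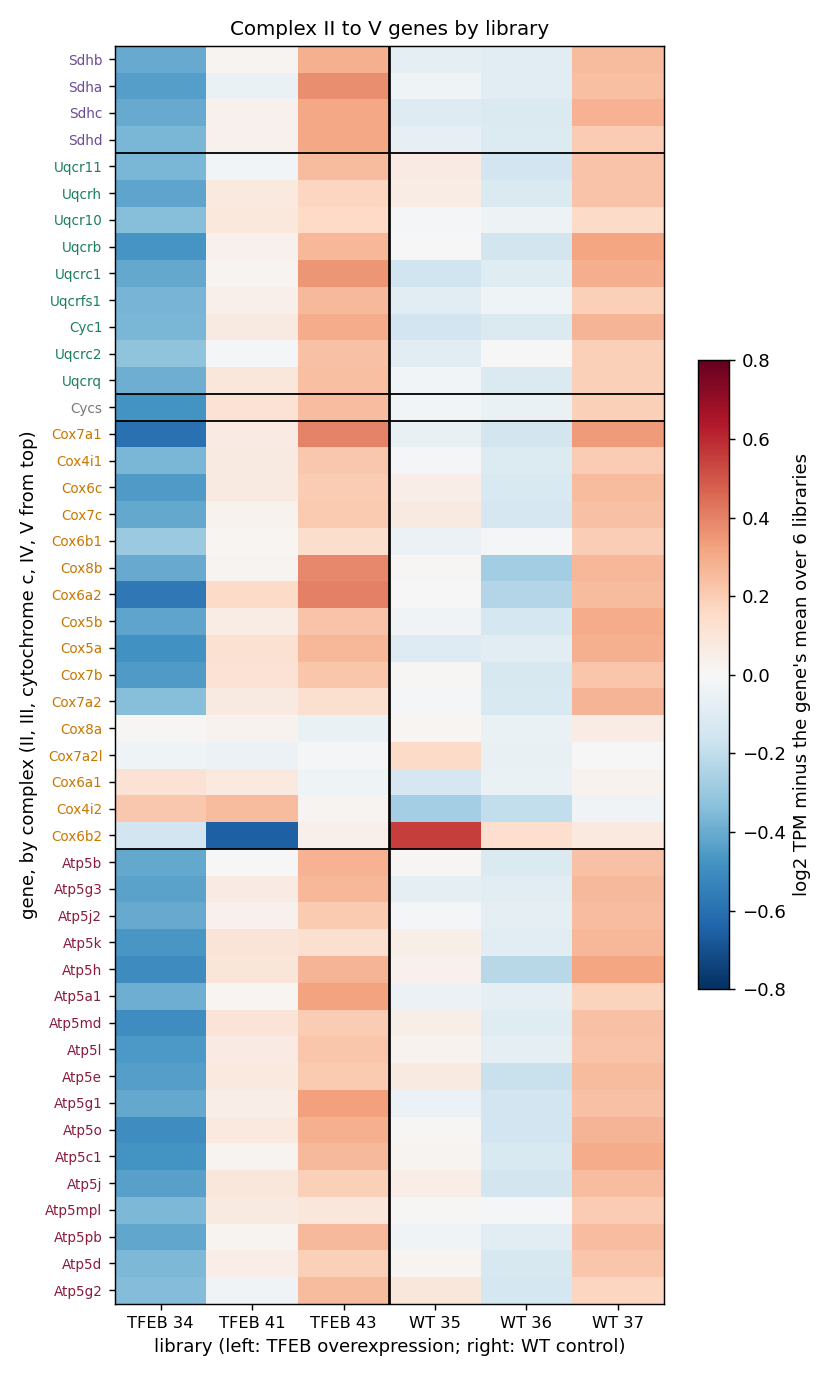
Each cell gives the log2 TPM of a gene in a library minus the gene's mean over the 6 libraries, for the 47 tested genes by complex (colour scale from -0.8, blue, to 0.8, red), with TFEB libraries left of the line and WT libraries right of it. The column of TFEB library 34 is blue and those of TFEB library 43 and WT library 37 are red in nearly all genes, while Cox8a, Cox7a2l, Cox6a1, Cox4i2 and Cox6b2 depart from this.

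Between the groups, no gene passed the test. The quasi-likelihood test of edgeR called 0 of 47 genes at an adjusted p under 0.05, higher or lower, and 0 of 13565 over the whole table (0%), with an adjusted p of 1.00 for every gene of the group. At an unadjusted p under 0.05 it held 0 of the 47, against 164 of all genes (1.21%). DESeq2, run on all 48 genes, and limma-voom, run on 47, also called 0 and had 0 at an unadjusted p under 0.05, while limma-trend on log2(TPM + 1) called 0 and had 1, Cox4i2 (unadjusted p = 0.028, edgeR 0.103). All 47 intervals (95%) of the log2 fold change included 0, with standard errors from 0.096 to 0.35. These intervals were wide with 3 libraries a group. That of Atp5b ran from a ratio of 0.557 to 1.64, and that of Cox6a1, the gene with the smallest standard error, from 0.913 to 1.26. Changes within these bounds were therefore not excluded.

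The log2 fold changes were small and mostly on 1 side of 0. They were below 0 in 40 of 47 genes (85.1%), against 49% of all genes tested, with a median of -0.059 for the group and 0.003 for all genes, and a range from -0.48 (Cox6b2) to 0.31 (Cox4i2). By complex the median was -0.030 for complex II, -0.047 for complex III, -0.044 for complex IV and -0.066 for complex V. The genes above 0 were Sdhd, Cyc1, Cox8b, Cox6a2, Cox6a1, Cox4i2 and Atp5g1. The sign of the median depended on single libraries: without TFEB library 34 it was 0.14, with 45 of 47 genes above 0, and without WT library 37 it was 0.093, with 43 above 0. Without TFEB library 43 it was -0.26, and without WT library 36 it was -0.16. In bulk tissue, fewer cells of a type and less RNA per cell cannot be told apart.

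**Figure D4:**
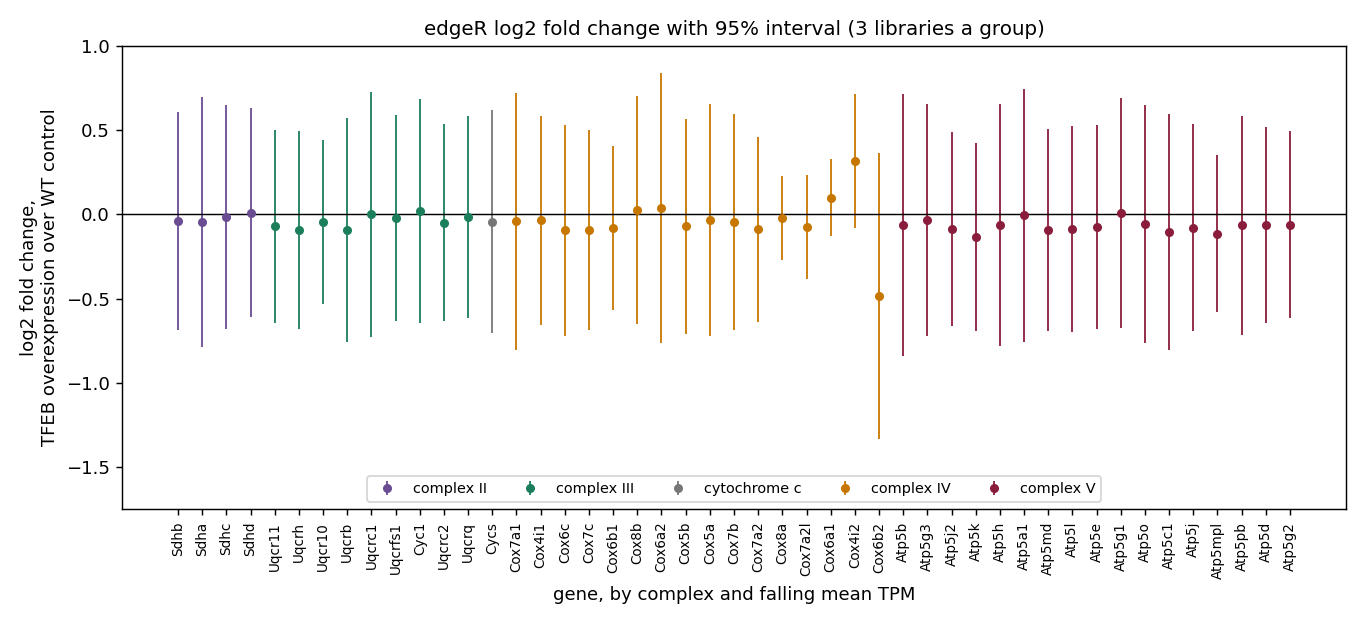
Log2 fold change of each tested gene, TFEB overexpression over WT control, from edgeR with its 95% interval, ordered by complex and falling mean TPM and coloured by complex. All 47 intervals cross 0, and Cox4i2 (0.31) and Cox6b2 (-0.48) lie farthest from it.

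The other genes of mitochondrial respiration were described in the same way. Of 38 tested subunits of complex I, which feeds electrons from NADH into the chain, 0 were called, 5 were above 0 and 33 below, with a median log2 fold change of -0.049, and all 38 were lowest in TFEB library 34. Of 14 tricarboxylic acid (TCA) cycle genes, 0 were called, 5 were above 0 and 9 below (median -0.039), and all 14 were lowest in TFEB library 34. Of 78 mitochondrial ribosome genes, 0 were called, 50 were above 0 and 28 below (median 0.028), and 65 were lowest in TFEB library 34. TFEB library 34 was therefore the lowest library of these lists too. Assembly factors were called in 0 cases: for complex II 3 of 4 were above 0, for complex III 3 of 7, for complex IV 15 of 25 and for complex V, its inhibitor included, 2 of 5. Coa3, an assembly factor of complex IV, had a log2 fold change of 0.26 (SE 0.16) and Coa4 one of -0.24 (SE 0.18). Ndufa4l2, a relative of the complex IV subunit Ndufa4, had one of 0.28 (SE 0.16). Of 13 regulators of respiratory genes 0 were called, and the one with the smallest p was Nrf1, which binds the motif marked in Cycs. Nrf1 stood at 17.2, 16.9 and 16.2 CPM in TFEB libraries, against 19.8, 18.8 and 19.8 CPM in WT libraries, with no overlap (log2 fold change -0.21, SE 0.10, edgeR adjusted p = 1.00). Of all 13565 genes tested, 4.75% had no overlap in CPM.

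Marker lists of heart cells also varied between the libraries. The cardiomyocyte list varied mostly in the same direction as the respiratory genes, and the matrix and macrophage lists mostly in the opposite direction. As mean log2 CPM relative to the mean of the 6 libraries, the 47 genes stood at -0.49, 0.048 and 0.32 in TFEB libraries 34, 41 and 43, against 0.0010, -0.18 and 0.30 in WT libraries 35, 36 and 37. The 16 cardiomyocyte markers stood at -0.37, 0.11 and 0.31 in TFEB libraries, against -0.21, -0.076 and 0.24 in WT libraries, and their summed level ran from 83012 to 150239 CPM in TFEB libraries and from 102635 to 136899 CPM in WT libraries. Both lists were lowest in TFEB library 34 and highest in TFEB library 43, but WT libraries 35 and 36 stood in opposite order in them. The 15 markers of matrix and activated fibroblasts ran the other way, at 2.02, 0.91 and -2.49 in TFEB libraries, against -0.049, 1.25 and -1.66 in WT libraries, with a summed level from 2317 to 26119 CPM in TFEB libraries and from 3133 to 15803 CPM in WT libraries. TFEB library 34, lowest in respiratory genes, was thus highest in matrix genes, and TFEB library 43 and WT library 37 were the reverse. The 10 macrophage and monocyte markers stood at 0.77, 0.20 and -0.71 in TFEB libraries, against -0.012, 0.40 and -0.64 in WT libraries, with sums from 425 to 1274 CPM in TFEB libraries and from 490 to 916 CPM in WT libraries. The 10 endothelial markers stayed within -0.10 to 0.053 in all libraries, with sums from 1680 to 1936 CPM in TFEB libraries and from 1802 to 2042 CPM in WT libraries. No marker of these 4 lists was at 0 in any library.

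Markers of other tissue were also measured. Summed over 6 adipocyte markers, the level ran from 0.191 to 9.23 CPM in TFEB libraries and from 14.5 to 217 CPM in WT libraries, with Adipoq, Cidec, Lep and Ucp1 at 0 in at least 1 library. Ucp1, the uncoupling protein of brown fat, had 2.35 CPM in WT library 35, 0.064 in TFEB library 34 and 0 in the other libraries. The 8 skeletal muscle markers summed to between 2142 and 2192 CPM in TFEB libraries and between 1801 and 2634 CPM in WT libraries. The fast myosins Myh1, Myh2 and Myh4 were at 0 in at least 1 library, and 4 of the 8 markers entered the test. In this list Ckm is also a cardiomyocyte marker, so the sum is not of skeletal muscle alone. Acta1, also in it, ran from 134 to 1080 CPM in TFEB libraries and from 180 to 1193 CPM in WT libraries. The 10 resident fibroblast markers summed to between 3396 and 3563 CPM in TFEB libraries and between 3620.5 and 5399.7 CPM in WT libraries. The part of cardiomyocyte, matrix, macrophage or adipocyte content in the values of the respiratory genes was not tested by these levels. With the cardiomyocyte list level as a covariate in the edgeR test, the median log2 fold change of the 47 genes was -0.13 with 2 genes above 0 and 45 below, and 0 of 47 genes were called.

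**Figure D5:**
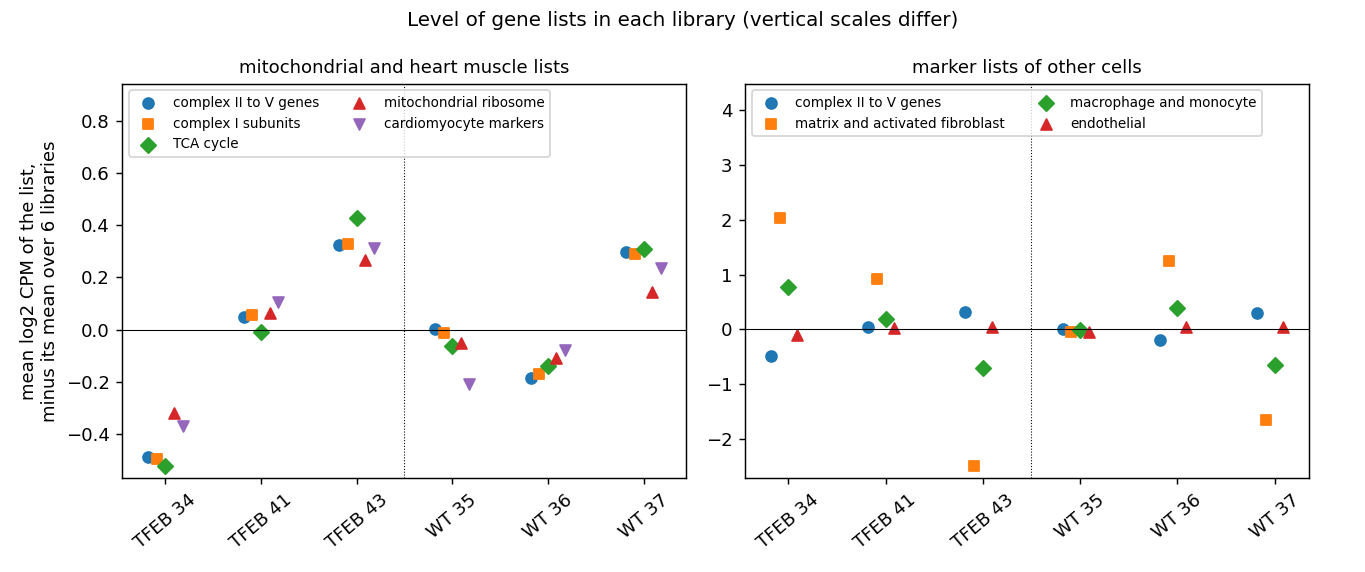
Mean log2 CPM of gene lists in each library minus the mean over the 6 libraries, with TFEB libraries left of the dotted line and WT libraries right of it; the vertical scales of the panels differ. Left, complex II to V genes run with complex I subunits, TCA cycle and mitochondrial ribosome genes, and mostly with cardiomyocyte genes, all lowest in TFEB library 34. Right, matrix and macrophage markers are highest there and lowest in TFEB library 43, while endothelial markers stay near 0.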

How the data were processed

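RNA sequencing of 6 mouse heart libraries was deposited as 1 table of 62498 RefSeq transcripts with Entrez gene numbers. Per the submitters' processing notes, the tools were DESeq2 1.4.5, RSEM 1.3.1, HISAT2 2.1.0 and Bowtie2 2.3.4.3 with mm10, with no role named for each. Both annotation release and strand setting were not given in the sources used here; reads of overlapping or antisense genes therefore cannot be told apart. The deposited read counts are estimated counts, not scaled for depth, per the file headers and values. The TPM values deposited by the authors are scaled for transcript length and to a common sum. The FPKM values deposited by the authors are scaled for length and depth. A further 6 columns of normalised counts hold no values and were not used.

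Estimated counts were summed over the transcripts of each gene and rounded to whole numbers, and TPM were summed. Symbols and positions came from the RefSeq table of GRCm38.p6; 117 of 17524 genes had no symbol. The main test was edgeR's two-sided quasi-likelihood test (edgeR 4.0.16, R 4.3.3, TMM scaling, genes kept by filterByExpr, Benjamini-Hochberg over 13565 genes, called at an adjusted p under 0.05), fitted on the whole table. CPM use the TMM factors. Isoform ratios were tested with exact permutation tests in scipy 1.17.1. Totals ran from 12942480 to 14969287 estimated counts a library, a 1.16-fold range. SD values are spread between libraries, and SE values of log2 fold changes were derived from the edgeR test.

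Alternatives were RLE and upper-quartile scaling, DESeq2 1.42.0, limma-voom (limma 3.58.1), no filter, a filter of 10 counts in 3 libraries, limma-trend after log2(TPM + 1), log2(TPM + 0.1) or log2(FPKM + 1) for genes reaching 1 in 3 libraries, the first of these also unfiltered, each library left out, and the cardiomyocyte level as covariate. Values in every library are given for the isoform pairs, the most abundant gene of each complex, the 2 genes of each complex with the smallest edgeR p and the c-ring genes; Cox7a2l and the genes named in the exceptions were added after their values were seen. Of the other pathway lists, at most 2 genes each with the smallest p could be named. Shares of transcript models are given for Atp5c1, Cyc1 and Sdhb by no rule set beforehand. The group of genes, the lists and the tests were chosen with earlier results of these data known. The scripts were tested on simulated data. Figures were drawn with matplotlib 3.10.9.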

Additional observations from a re-analysis of the deposited data

How the results depend on the processing

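No gene of the group was called under any alternative run (0 genes in each). The median log2 fold change of the 47 genes, -0.059 in the main test, was between -0.13 and -0.052 under the alternatives that kept all libraries, and between -0.26 and 0.14 with a library left out. Among the 21 genes given by library, 15 changed sign without TFEB library 34, 13 without WT library 37, and 1 to 3 without any of the other libraries. With a library left out, the log2 fold change ran from -0.31 to 0.14 for Atp5b, -0.24 to 0.22 for Atp5g1, -0.28 to 0.12 for Atp5g2, -0.26 to 0.19 for Atp5g3, -0.27 to 0.072 for Atp5k, -0.23 to 0.060 for Atp5mpl, -0.22 to 0.16 for Cox4i1, -0.24 to 0.31 for Cox6a2, -0.32 to 0.22 for Cox7a1, -0.24 to 0.090 for Cox7a2, -0.085 to 0.043 for Cox8a, -0.23 to 0.24 for Cox8b, -0.26 to 0.19 for Cycs, -0.35 to 0.18 for Sdha, -0.28 to 0.17 for Sdhb, -0.28 to 0.12 for Uqcr11, -0.32 to 0.13 for Uqcrb and -0.26 to 0.11 for Uqcrh. Cox4i2 stayed between 0.26 and 0.43, Cox6a1 between 0.060 and 0.18, and Cox6b2 between -0.68 and -0.30. The log2 difference of the isoform ratios ran from -0.37 to 0.20 for Cox6a2 over Cox6a1, -0.13 to 0.13 for Cox7a1 over Cox7a2, -0.20 to 0.22 for Cox8b over Cox8a, and -0.57 to -0.18 for Cox4i1 over Cox4i2, the lowest without TFEB library 43 and the highest without TFEB library 34.

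Of these genes, 3 with changes near 0 took the other sign under other settings. Atp5g1 was at -0.016 by limma-voom, -0.021 on log2(TPM + 1), with and without the filter, and on log2(TPM + 0.1), -0.032 on log2(FPKM + 1), and -0.074 with the cardiomyocyte level as covariate. Cox6a2 was at -0.0026, -0.013, -0.024 and -0.081 in the same order. Cox8b was at -0.0086 on log2(FPKM + 1) and -0.056 with the covariate. The cause was not tested.

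No paired analysis was possible because the labels give the groups no replicate number in common. Precision was limited by the number of libraries, 3 a group, and for Cox6b2, with 8 to 20 counts a library, and Cox7b2 by depth. Groups of 3 are too small for a test of single outlying libraries.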

Other observations

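The 48 genes were deposited as 91 transcript models, and 18 of them had more than 1 model, which allowed the share of a gene's TPM held by each model to be read by library. Estimated shares of models that overlap in sequence are uncertain, and they were not tested between the groups. Of the 18 genes, Atp5c1, Cyc1 and Sdhb are given here by no rule set beforehand. How many of the 18 follow any 1 order of libraries was not counted. The main model of Atp5c1, the gamma subunit of ATP synthase, held 88.7, 92.5 and 92.1% of the gene's TPM in TFEB libraries 34, 41 and 43, against 92.2, 89.97 and 92.3% in WT libraries 35, 36 and 37. Its second model held 11.3, 7.5 and 7.88% in TFEB libraries, against 7.70, 9.94 and 7.66% in WT libraries. The second model was highest in TFEB library 34 and next in WT library 36, the libraries in which summed TPM of complexes II to V was lowest. The minor model of Cyc1, cytochrome c1, held 26.8, 31.5 and 24.0% in TFEB libraries, against 25.3, 28.0 and 32.2% in WT libraries, with no such order. The main model of Sdhb held 93.1, 93.2 and 93.5% in TFEB libraries, against 92.6, 92.8 and 93.8% in WT libraries, and was nearly level.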
